A study of Mus musculus with 6 samples.

Results

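The genes described are mouse genes with the symbols of orphan and adhesion G protein-coupled receptors. They were taken as every gene of the expression table whose symbol starts with Gpr and a number, or with Adgr, leaving out Gpr35 and Gpr119. The rule found 92 genes among 23420. It goes by symbol, so the 92 include 11 genes listed as proteins of inner membranes or outside the rhodopsin-like class A. Among these is the pseudogene Gpr137b-ps. Some others, such as Gpr81 and Gpr44, are receptors with known ligands. All 92 are called receptor genes below for short. No gene in the table carries an Adgr symbol, since the table uses older names for the adhesion family. The adhesion receptors therefore appear under their older Gpr symbols, and 13 adhesion receptors with other old names (Cd97, Bai, Celsr, Lphn, Emr and Eltd1) fall outside the rule.

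RNA was sequenced from tuft cells of the ileum, the distal part of the small intestine, in 6 libraries that the labels call mouse replicates 1 to 6 of 1 group. The mice were adult C57BL/6J animals with 1 Gfi1b-eGFP allele (Gfi1b eGFP/+), a green fluorescent reporter read from the Gfi1b gene. Tuft cells were sorted as live GFP+ EpCam+ CD45- cells. The animals had no other allele or treatment in the labels, and no other cell population was sequenced, so every value is a level in a sorted library and none is a difference from other epithelium. Expression is given in TPM, a share of all transcripts in the library (each library sums to 1000000) that is scaled by transcript length and allows genes to be compared within a library.

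The libraries had the markers of the sorted cells. All 13 tuft cell markers in the table were at 1 TPM or more in every library, among them the cation channel gene Trpm5 (839 to 1403 TPM) and Rgs13 (718 to 1141 TPM), and their summed level was 6131 to 10360.1 TPM. Genes of other epithelial cells were also present. Summed levels were 4053 to 26954.5 TPM for Paneth cell markers, 7529 to 15666.8 TPM for enterocyte and 1053 to 5118 TPM for goblet cell markers. Stem cell markers summed to 336 to 813 TPM and enteroendocrine cell markers to 379 to 536 TPM. The enteroendocrine sum was mostly Sct (331 to 474 TPM), and only 1 of its 9 markers was at 1 TPM or more in every library. Leukocyte lists were low. T cell markers summed to 34.5 to 232 TPM, with the highest values in replicates 5 and 6 (Gzma at 141 and 158 TPM). B cell markers summed to 0 to 38.2 TPM. Among them Igj was at 38.22 and 16.79 TPM in replicates 5 and 6 and at 0 in replicates 1 to 3. Macrophage markers summed to 17.3 to 42.9 TPM, and Itgam, the highest of them by mean, was at 10.96 to 20.66 TPM. Ms4a1 of the B cell list and Fcgr1 of the macrophage list were listed at 0 in every library. Ptprc, which encodes CD45, made up most of a general leukocyte list of 81.0 to 185 TPM although the sort was CD45-. The endothelial list (5.04 to 22.1 TPM) was almost all Tek, and the stromal list was at 0 in 5 libraries and at 62.0 TPM in replicate 5.

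G protein-coupled receptors are membrane proteins that cross the membrane several times and pass an outside signal to G proteins and arrestins within the cell. Orphan receptors are those without an agreed ligand. Adhesion receptors carry a long outer part that binds matrix or neighbouring cells and cut themselves beside the membrane, which leaves a short tethered stretch that can switch the receptor on. Several proteins with Gpr symbols are not cell surface receptors at all but sit in Golgi, endosome or lysosome membranes. Tuft cells are rare chemosensory cells of the gut lining that use the signal chain of taste cells and sense metabolites such as succinate through another receptor of this kind, Sucnr1.

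Of the 92 genes, 16 were at 1 TPM or more in every library, which is 17.4%, beside 39.9% of all 23420 genes. Another 33 were above 0 in some library without reaching that level throughout, so that 49 (53.3%) were above 0 in at least 1 library beside 67.1% of all genes. Of the 33, 4 (Gpr39, Gpr55, Gpr146 and Gpr160) were above 0 in all 6 libraries, 19 in 2 to 5 libraries and 10 in a single library, such as Gpr6 with 5.62 TPM in replicate 1 alone. The remaining 43 were listed at 0 in all 6 libraries. Between 27 and 34 of the genes were above 0 in each library, and 20 were above 0 in every library. Their summed level was 419 ± 96.5 TPM (SD, n = 6), highest in replicate 1 (594 TPM) and lowest in replicate 6 (333 TPM), or 0.0333% to 0.0594% of all TPM. For scale, the single gene Sucnr1 was at 261 to 577 TPM.

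Expression was concentrated in a few genes. The 3 highest in each library made up 46.7% to 51.0% of the summed level, and the 10 highest made up 81.2% to 87.9%. Replicate 1, with the highest summed level of these receptors, also had the highest summed levels of tuft cell markers and of enterocyte markers (10360.1 and 15666.8 TPM). Both marker lists put the 6 libraries in the same order, and the part of either cell type in the receptors' sum was not tested. In sorted bulk RNA, fewer tuft cells in a library and less receptor RNA per tuft cell cannot be told apart.

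**Figure D1:**
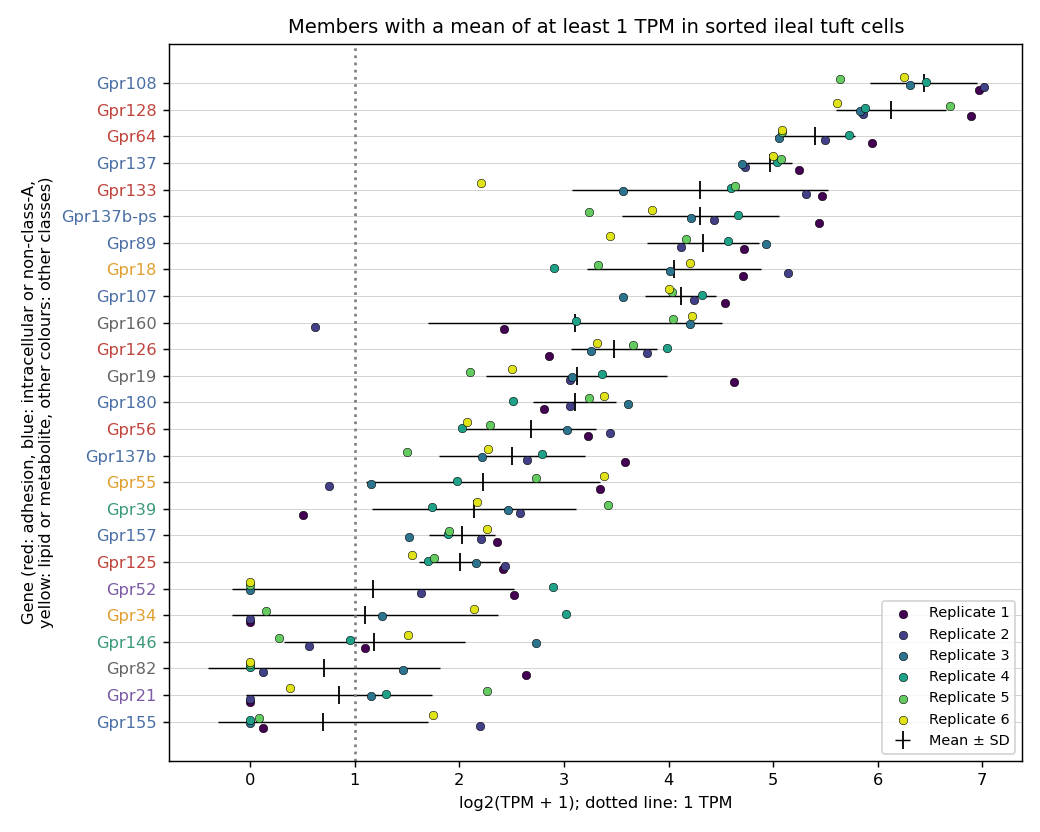
Level of the 25 receptor genes whose mean reached 1 TPM, as log2(TPM + 1) on the horizontal axis, with 1 point for each of the 6 libraries and a bar for the mean ± SD. The gene names are coloured by class. Gpr108, Gpr128 and Gpr64 lead, and 9 of the 25 genes have at least 1 library under the dotted line at 1 TPM.

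By class, the counts of expressed genes are a description with no test, to be read against 39.9% of all genes. Among the genes for proteins of inner membranes or outside the rhodopsin-like class A, 8 of 11 were at 1 TPM or more in every library, or 72.7%. Both counts, and the sums of this class, include the pseudogene Gpr137b-ps (mean 21.1 TPM), whose split from Gpr137b is uncertain. Among adhesion receptors 6 of 16 reached that level, or 37.5%, near the share of all genes. Of the others, 1 of 14 genes listed as receptors for lipids or other metabolites and 1 of 24 genes listed without a class reached that level throughout. The 24 include Gpr44, now the prostaglandin receptor gene Ptgdr2, which was listed at 0. None of 10 peptide or ion receptors, 10 constitutively active receptors, 4 proton sensors or 3 class C orphans reached that level. The inner-membrane and non-class-A genes summed to 196 ± 49.0 TPM and the adhesion receptors to 160 ± 49.0 TPM (SD, n = 6). As shares of the receptors' summed level these were 46.8% ± 5.05 and 37.9% ± 6.17.

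The adhesion share ran from 30.7% in replicate 6 to 48.3% in replicate 5, and replicate 5 was the only library in which it exceeded the inner-membrane share (37.0%). That library was also the only one with stromal markers above 0, almost all from the matrix gene Dcn (59.4 TPM), whose part in the share was not tested. The lipid and metabolite receptors made up 6.93% and the unclassed receptors 5.70% of the summed level on average.

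**Figure D2:**
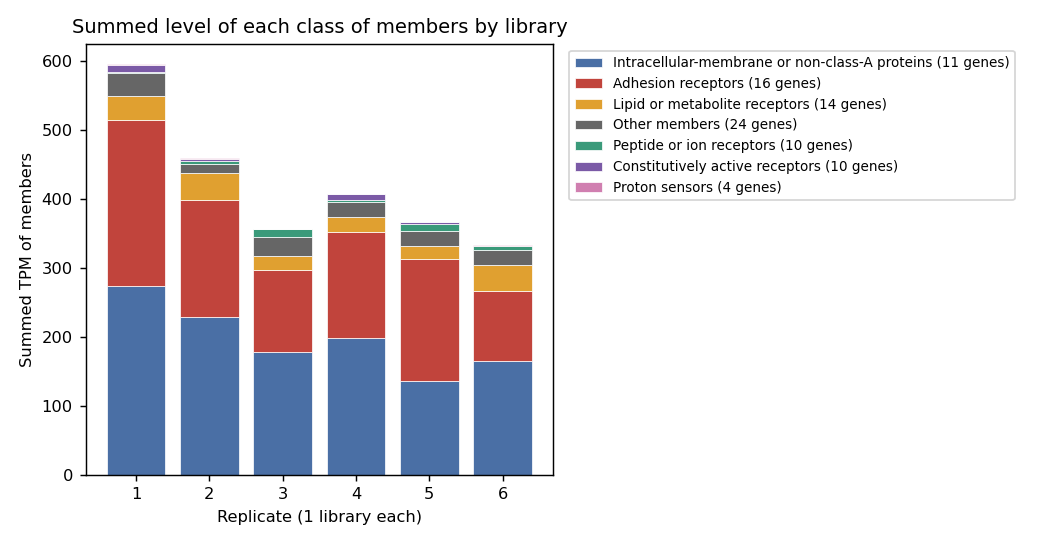
Summed TPM of the receptor genes in each of the 6 libraries, stacked by class, with the number of genes of each class in the legend. The class C orphans are not drawn because all 3 are listed at 0. Blue (inner-membrane or non-class-A) and red (adhesion) fill most of every bar, and the red part is larger than the blue one in replicate 5 alone.

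Among adhesion receptors, Gpr128, now named Adgrg7, had the highest level. Gpr128 is an orphan adhesion receptor known for its expression in intestinal epithelium. Its lowest, median and highest levels were 48.0, 57.6 and 118 TPM, with a mean of 73.2 ± 29.1 TPM (SD, n = 6). Replicates 1 (118 TPM) and 5 (102 TPM) stood above the other four, which lay between 48.0 and 58.0 TPM. Gpr128 lay at percentiles 84.3 to 93.0 of the genes above 0 in its library, and was first or second among the 92 genes in every library. The gene lies at chr16:56724609-56795855 on the minus strand (GENCODE M21, GRCm38, the assembly also called mm10) with 16 exons.

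Gpr64, now Adgrg2, is known from the efferent ducts of the male reproductive tract, where it takes part in fluid balance. It was at 32.3, 38.5 and 60.7 TPM in the lowest, median and highest library, a mean of 42.5 ± 11.9 TPM. Gpr64 held rank 3 among the 92 genes in all 6 libraries. It lies at chrX:160390690-160498070 on the plus strand with 30 exons. The starts of Gpr128 and Gpr64, the adhesion receptors with the highest levels, contrast in sequence. The RefSeq promoters (GRCm38.p6, 250 bases before to 50 after the start) are given here 5′ to 3′ with each CG pair in capitals, for Gpr128 at chr16:56795809-56796108 on the minus strand and for Gpr64 at chrX:160390440-160390739 on the plus strand.
Gpr128: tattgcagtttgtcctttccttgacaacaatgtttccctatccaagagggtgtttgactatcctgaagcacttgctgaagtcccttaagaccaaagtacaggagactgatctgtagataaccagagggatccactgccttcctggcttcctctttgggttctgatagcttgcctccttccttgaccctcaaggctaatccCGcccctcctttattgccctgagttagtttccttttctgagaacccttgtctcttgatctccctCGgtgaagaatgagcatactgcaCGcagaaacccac
Gpr64: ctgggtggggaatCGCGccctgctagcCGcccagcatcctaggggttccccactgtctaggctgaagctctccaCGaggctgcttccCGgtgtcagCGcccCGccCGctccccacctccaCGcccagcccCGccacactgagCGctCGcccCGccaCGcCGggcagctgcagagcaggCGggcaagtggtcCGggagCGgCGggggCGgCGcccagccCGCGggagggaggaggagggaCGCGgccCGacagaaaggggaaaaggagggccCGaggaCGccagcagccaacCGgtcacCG
The Gpr128 promoter held 3 CG pairs and 48.0% G or C, and 23.3% of all 32851 mouse promoters in the RefSeq table held fewer CG pairs. The Gpr64 promoter held 30 CG pairs and 74.0% G or C, and 88.3% of promoters held fewer. Over the 20 entries of the 13 expressed receptor genes that had one, the median was 19.5 CG pairs, beside 7 over the 36 entries of the genes listed at 0 and 7 over the whole table. Gpr128 was therefore high with a promoter far below the median of these entries, whereas Gpr64 was above it. Few CG pairs were not particular to Gpr128 among expressed genes. Gpr18 held 5 and Gpr56 held 7 and 6 in its entries, whereas Gpr126 held 38 and Gpr125 held 34.

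Gpr133, now Adgrd1, is an adhesion receptor that raises cyclic AMP. It was the most variable of the expressed adhesion receptors, at 3.63, 23.6 and 43.2 TPM in the lowest, median and highest library (mean 23.9 ± 15.3 TPM). Replicates 1 and 2 held the highest values (43.2 and 38.7 TPM) and replicates 3 and 6 the lowest (10.9 and 3.63 TPM), a range of 11.9-fold that took the gene from rank 4 to rank 17 among the 92. Gpr126, now Adgrg6, which is required for myelination by Schwann cells, was at 6.25, 10.3 and 14.8 TPM (mean 10.5 ± 3.15 TPM), a 2.37-fold range. The gene was lowest in replicate 1, the library in which Gpr108, Gpr64 and Gpr133 were at or near their highest. Gpr56, now Adgrg1, known for its role in the developing cortex, was at 3.06, 5.52 and 9.88 TPM (mean 5.93 ± 2.93 TPM). Gpr125, now Adgra3, a receptor linked to planar cell polarity, was at 1.92, 2.92 and 4.42 TPM (mean 3.13 ± 1.10 TPM). Both were above their median in replicates 1 to 3 and below it in replicates 4 to 6.

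The other 10 adhesion receptors under the rule had means below 1 TPM, and 5 of them, including Gpr97 and Gpr110, were listed at 0 throughout. Outside the rule, 12 of the 13 adhesion receptors with other old names were above 0 in some library, beside 67.1% of all genes. Of the 13, 5 were at 1 TPM or more in every library, beside 39.9% of all genes. The highest was Cd97, now Adgre5, at 25.3 to 48.6 TPM (mean 36.8 ± 7.88 TPM), followed by Bai2 at 9.98 to 23.5 TPM and Celsr1 at 4.27 to 10.4 TPM. In mean level Cd97 thus lay between Gpr64 and Gpr133 among the adhesion receptors.

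Among proteins of inner membranes, Gpr108 had the highest level of all 92 genes. Gpr108 and Gpr107 are related proteins of the Golgi and endosomes. Gpr108 was at 48.8, 82.9 and 128 TPM in the lowest, median and highest library (mean 90.5 ± 30.7 TPM, percentiles 85.2 to 93.2 of genes above 0). It ranked first in 5 of 6 libraries and second, behind Gpr128, in replicate 5. Gpr107 was lower, at 10.8, 16.6 and 22.3 TPM (mean 16.7 ± 3.94 TPM), and stayed within a 2.06-fold range. Gpr108 lies at chr17:57234635-57248446 on the minus strand and Gpr107 at chr2:31152316-31218775 on the plus strand.

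Gpr137 and Gpr137b encode lysosomal membrane proteins. Gpr137 (chr19:6938057-6942480, minus strand) was at 25.0, 31.5 and 37.1 TPM, a mean of 30.6 ± 4.60 TPM. Its 1.48-fold range was the narrowest of the 16 expressed genes. The table lists Gpr137b (chr13:13357620-13394014, minus strand) and its transcribed pseudogene Gpr137b-ps (chr13:12615057-12650388, minus strand) separately. Gpr137b was at 1.82, 4.55 and 11.01 TPM and Gpr137b-ps at 8.42, 19.1 and 42.3 TPM. In every library the pseudogene was 3.46 to 4.83 times the gene, and both were highest in replicate 1 and lowest in replicate 5.

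Where they align, the transcripts of the pair are nearly identical. The longest match was 1966 bases at 97.4% with 33 gap positions. For another pseudogene transcript it was 1159 bases at 99.5% with 5 mismatches. The Gpr137b transcript has 2971 bases, and no match reached past its base 1976. The placing of reads allowed 1 mismatch and divided reads that matched several transcripts. The split between the pair is therefore uncertain for reads from the matching part. Their sum was 10.2 to 53.3 TPM. The window shows how little separates them within the matching part. It is 60 bases of the Gpr137b transcript at chr13:13365112-13365171 (GRCm38, minus strand) beside the matching stretch of the pseudogene transcript, 5′ to 3′ with the single base that differs in capitals.
Gpr137b: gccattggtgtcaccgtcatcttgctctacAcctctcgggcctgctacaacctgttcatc
Gpr137b-ps: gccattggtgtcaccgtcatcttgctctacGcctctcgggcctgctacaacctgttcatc
The pair shares 59 of these 60 bases, and a read within the window could be placed on either transcript under the allowance of 1 mismatch.

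Gpr89 encodes an anion channel that regulates the pH of the Golgi. It was at 9.88, 19.8 and 29.6 TPM (mean 20.2 ± 7.11 TPM), highest in replicate 3, where no other of the 10 leading genes peaked. Gpr180, a membrane protein linked to TGF-β signalling, was at 4.69, 7.91 and 11.2 TPM (mean 7.86 ± 2.37 TPM). Gpr157, a receptor known from cilia of neural progenitors, was at 1.87, 3.19 and 4.12 TPM (mean 3.15 ± 0.849 TPM), 1 of the 2 genes just inside the threshold of 1 TPM. Gpr155, a lysosomal cholesterol sensor, was above 2 TPM in replicates 2 and 6 (3.58 and 2.36 TPM) and at or below 0.09 TPM in the others. Gpr137c reached 0.17 TPM in 1 library and Gpr143, of pigment cell melanosomes, was listed at 0.

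Of the receptors for lipids or other metabolites, 1 was at 1 TPM or more throughout. Gpr18, proposed as a receptor for N-arachidonoyl glycine and known from lymphocytes, was at 6.51, 16.3 and 34.3 TPM (mean 18.0 ± 10.4 TPM). It was highest in replicates 1 and 2 (25.2 and 34.3 TPM), in which the T cell list summed to 34.5 and 65.3 TPM, and lower in replicates 5 and 6 (9.04 and 17.5 TPM), in which that list summed to 198 and 232 TPM. In replicates 3 and 4 Gpr18 was also low (15.1 and 6.51 TPM) while the list summed to 42.7 and 64.9 TPM. Gpr18 lies at chr14:121911253-121915781 on the minus strand. Gpr55, a receptor for lysophosphatidylinositol, was at 0.68, 4.30 and 9.44 TPM (mean 4.85 ± 3.86 TPM), highest in replicates 6 and 1 and lowest in replicate 2, a 13.9-fold range. The part of T cells in the level of either gene was not tested.

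The other genes of this class were low or absent. Gpr34, for lysophosphatidylserine, was above 1 TPM in replicates 3, 4 and 6 (1.40, 7.12 and 3.42 TPM) and at 0 in replicates 1 and 2. Gpr183 detects the oxysterol made by Ch25h and Cyp7b1 and broken down by Hsd3b7. It was above 0 in replicates 4 and 5 alone (2.46 and 1.15 TPM). Gpr81 (the lactate receptor Hcar1), Gpr84 and Gpr182, whose place in this class is uncertain, were listed at 0 throughout.

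Among receptors without a class, Gpr160 and Gpr19 had the highest means. Gpr160, an orphan (chr3:30855950-30897192, plus strand), was at 0.54, 11.6 and 17.7 TPM (mean 10.5 ± 7.33 TPM). It was within the 7 highest genes in replicates 3, 5 and 6 (17.4, 15.5 and 17.7 TPM) but 29th in replicate 2, a 32.7-fold range. Goblet cell markers summed to 2495, 2986 and 5118 TPM in those 3 libraries and to 1155, 1053 and 2324 TPM in replicates 1, 2 and 4, where Gpr160 was at 4.38, 0.54 and 7.66 TPM. The part of goblet cells in its level was not tested. Gpr19, an orphan best known from brain, was at 3.28, 7.38 and 23.7 TPM (mean 9.28 ± 7.37 TPM), and replicate 1 stood far above the others, which ended at 9.29 TPM. Gpr82 (5.22 TPM in replicate 1 and 1.75 TPM in replicate 3) was at 0.09 TPM or less elsewhere. Gpr160, with a mean in the 10 highest, fell just outside the threshold for expression in every library because of replicate 2, as did Gpr55, whereas Gpr137b and Gpr157 lay just inside with lowest values of 1.82 and 1.87 TPM.

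The remaining classes held no gene at 1 TPM or more in every library. Gpr39, a zinc-sensing receptor related to the ghrelin receptor, was the highest peptide or ion receptor at 0.42, 4.00 and 9.68 TPM (mean 4.23 ± 3.13 TPM), and was under 1 TPM in replicate 1 alone. Gpr146, a receptor linked to liver cholesterol, was at 0.21, 1.03 and 5.64 TPM, with a mean of 1.71 TPM that became 0.920 TPM without replicate 3. The other 8 of the class, among them Gpr15, which guides T cells to the colon, were listed at 0. Gpr52, a Gs-coupled receptor of the striatum, was at 4.73, 2.10 and 6.45 TPM in replicates 1, 2 and 4 and at 0 in the others. The proton sensors Gpr4 and Gpr65 were listed at 0. The class C orphans, such as Gpr158 of the brain and Gpr179 of the retina, were listed at 0 throughout.

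The order of the 10 highest means was Gpr108, Gpr128, Gpr64, Gpr137, Gpr133, Gpr137b-ps, Gpr89, Gpr18, Gpr107 and Gpr160. Each gene was compared with the next within libraries, on the difference in log2(TPM + 1), using exact permutation of its signs (two-sided), with 9 comparisons adjusted by the Benjamini-Hochberg method. The same values set the order, so the tests describe how firm it was. No pair passed an adjusted p of 0.05, and the smallest p that 6 libraries allow is 0.03125, so that at least 6 of the 9 pairs would have had to reach that limit for any to pass. Only 2 steps reached that limit, with the same sign in 6 of 6 libraries. Gpr128 exceeded Gpr64 by 0.73 ± 0.51 (log2, SD, n = 6, exact permutation p = 0.03125, adjusted p = 0.1406), and Gpr64 exceeded Gpr137 by 0.43 ± 0.33 (exact permutation p = 0.03125, adjusted p = 0.1406), although in replicate 5 that difference was 0.00 on the log2 scale.

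The other steps had no such regularity. Gpr108 exceeded Gpr128 in 5 of 6 libraries by 0.31 ± 0.75 (log2, exact permutation p = 0.28125, adjusted p = 0.5062, n = 6). From Gpr137 to Gpr107, each gene exceeded the next in 3 or 4 of 6 libraries, with mean differences from -0.06 to 0.67 on the log2 scale and adjusted p of 0.5062 to 0.9688 (exact permutation tests, n = 6). The differences between Gpr133 and Gpr137b-ps (-0.01 ± 1.08), Gpr137b-ps and Gpr89 (-0.02 ± 0.66) and Gpr18 and Gpr107 (-0.06 ± 0.84) were opposite in sign to those of the means in TPM. The order of neighbours from Gpr137 down to Gpr107 was therefore not firm. Whether these neighbours differ was not settled, since the test could hardly pass with 6 libraries and neighbours were chosen for adjacent means. Genes farther apart could differ, and Gpr137 (25.0 to 37.1 TPM) and Gpr107 (10.8 to 22.3 TPM) did not overlap. Gpr107 and Gpr160 differed by 1.01 ± 1.63, with Gpr107 higher in 3 of 6 libraries.

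**Figure D3:**
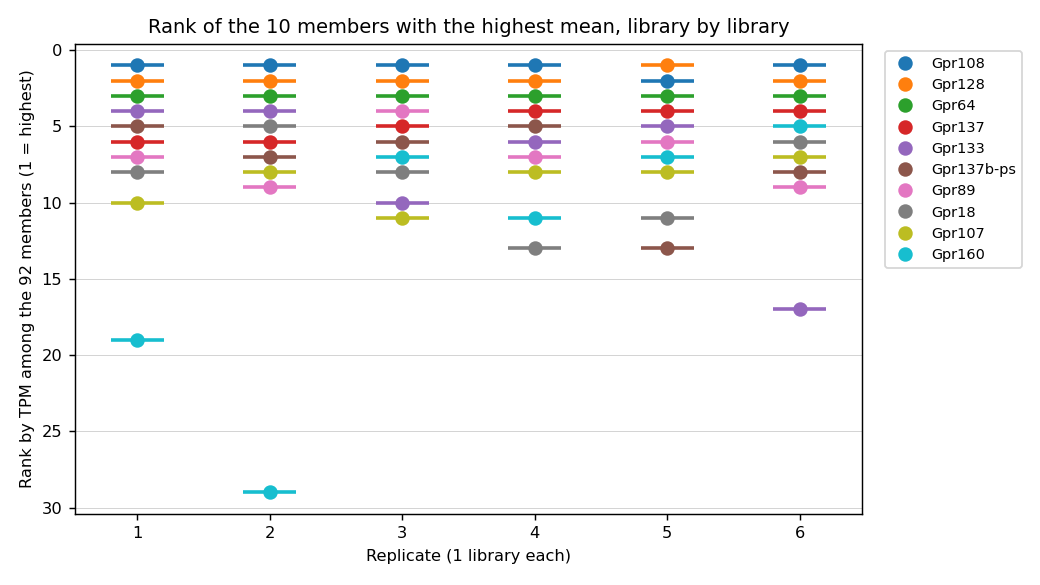
Rank by TPM among the 92 receptor genes (vertical axis, 1 is highest) of the 10 genes with the highest means, in each of the 6 libraries. Gpr108, Gpr128 and Gpr64 hold ranks 1 to 3 in every library, whereas the genes below them change places, with Gpr133 falling to 17 in replicate 6 and Gpr160 to 29 in replicate 2.

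Positions were found for 91 of the 92 genes in GENCODE M21, after 19 older symbols had been matched through RefSeq synonyms. Some of the genes lie within another gene, and the options for placing reads printed in the methods hold no restriction by strand. Reads from a receptor and from the gene around it therefore cannot be told apart where their transcripts overlap. Of the 91, 12 lay wholly inside another protein-coding gene. These were 1 of the 16 expressed genes, 9 of 32 genes that were above 0 but not expressed throughout, and 2 of 43 genes at 0. For these counts, and those of shared exons below, the share over all genes was not counted, so they are a description only. The surrounding genes and their values were chosen for description after the values had been seen.

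The expressed case was Gpr18, which lies in Ubac2 on the opposite strand and shares no exon base with it. Ubac2 was at 28.1 ± 6.17 TPM, highest in replicate 4 (38.4 TPM), where Gpr18 was lowest (6.51 TPM). Gpr183, in the same gene, was at 0 in 4 libraries. Gpr34 and Gpr82 lie in Cask, which was at 6.04 ± 2.18 TPM. Gpr34 and Cask were both highest in replicate 4 (7.12 and 9.0 TPM), whereas Gpr82 was highest in replicate 1, where Cask was lowest (2.81 TPM). Gpr146 and Gpr30 lie in 3110082I17Rik, and Gpr146 and that gene were both highest in replicate 3 (5.64 and 5.15 TPM). Gpr21 lies in Rabgap1 on the same strand and shares 74 exon bases with it. Rabgap1 was at 33.8 ± 7.33 TPM and Gpr21 at 0 to 3.80 TPM. The part of the surrounding genes in these values was not tested.

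**Figure D4:**
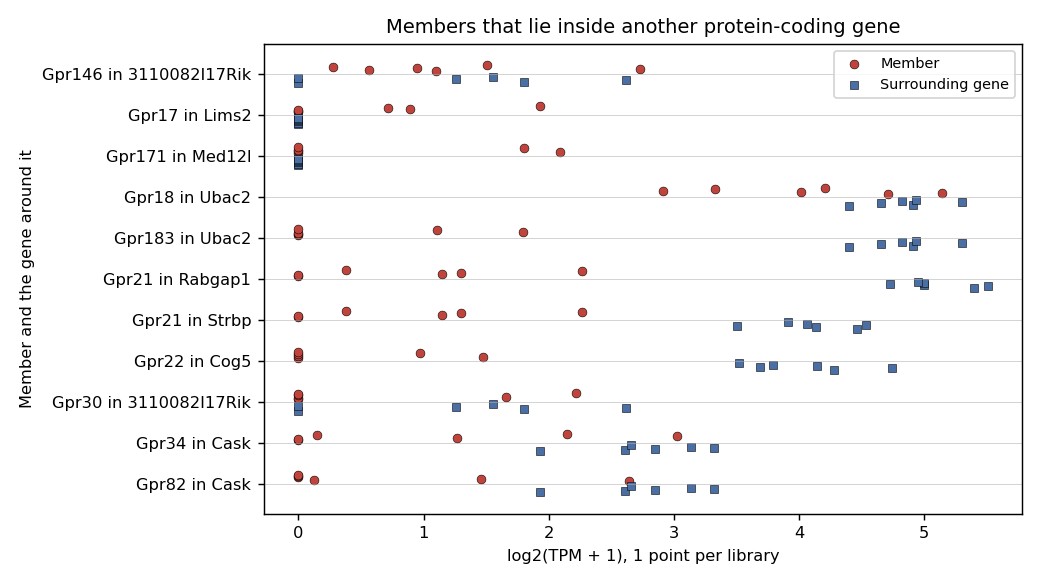
Level in log2(TPM + 1) of the 10 receptor genes above 0 that lie inside another protein-coding gene (red circles) and of the gene around each (blue squares), with 1 point for each of the 6 libraries. Gpr21 has 2 surrounding genes and is drawn once with each. Gpr17 and Gpr171 are above 0 in some libraries while the genes around them are at 0 in all.

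Exons overlapped those of a neighbouring gene for 16 of the 91 genes, among them 2 of the 16 expressed ones. Gpr137 shares 524 bases, 15.4% of its exons, with Bad on the opposite strand, which was at 52.1 ± 9.99 TPM. Gpr89 shares 1333 bases, 24.8% of its exons, with Pdzk1 on the opposite strand, which was at 17.3 ± 11.4 TPM. In replicate 3, where Gpr89 was highest (29.6 TPM), Pdzk1 was at 9.40 TPM. Gpr39 shares 39.9% of its exon bases with Lypd1, which was at 0 in 4 libraries and at most 0.72 TPM in the others.

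Partners of these receptors were taken from lists of pathway genes. Of 8 arrestin and receptor kinase genes in the table, which switch activated receptors off, 5 were at 1 TPM or more in every library. The share of all genes was 39.9%. Grk4 (27.7 to 63.5 TPM), Arrb1 (27.4 to 49.6 TPM) and Adrbk1 (19.2 to 41.9 TPM) led the list. Arrb2, the other general arrestin, was at 0 to 0.70 TPM. Of 21 genes for ligands of adhesion receptors, 4 were at 1 TPM or more throughout, beside 39.9% of all genes. Of the 21, 11 were above 0 in some library, beside 67.1% of all genes, and 10 were listed at 0. The highest were Prnp, whose product binds Gpr126, at 34.5 to 189 TPM, Tgm2, whose product binds Gpr56, at 38.6 to 79.5 TPM, and Cd55, whose product binds Cd97, at 13.1 to 38.5 TPM. Each of these ligand genes, named as the highest of the list, was thus expressed in the same libraries as its receptor.

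Of 10 genes that make, break down or encode ligands of the other receptors, 3 were at 1 TPM or more in every library. Across all genes the share was 39.9%. Psap, whose product is the precursor of saposins and of a peptide proposed for Gpr37 and Gpr37l1, was at 124 to 192 TPM, while both receptors were listed at 0. Hsd3b7 was at 46.3 to 71.4 TPM, while Ch25h and Cyp7b1 were listed at 0 and Gpr183 was above 0 in 2 libraries. The gene 2610528A11Rik, which encodes a peptide ligand of Gpr15, was at 0 to 25.5 TPM with Gpr15 at 0.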

How the data were processed

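Tuft cells were sorted from the ileum, and cDNA was made by a modified SMART-Seq2 protocol for full-length RNA and sequenced in paired ends, as the methods state. The labels list a 3′ and a droplet protocol beside it for every sample. Under either of those, scaling by length would not give levels that can be ranked between genes. Per the methods, reads were placed on the mouse transcriptome of build mm10 with Bowtie and quantified with RSEM by the authors, who deposited 1 TPM value per gene and library. The submitters' processing notes also name TopHat, whose role is not given in the sources used here. As deposited by the authors, TPM values sum to 1000000 in each of the 6 libraries within rounding, and 13044 to 13308 of 23420 genes were above 0 in a library. Read numbers cannot be had from TPM. Library depth is therefore unknown, and neither counting intervals nor detection limits are given. Rn45s, a ribosomal RNA gene, took 23.1% to 32.6% of TPM, which lowers all other genes' values to an extent that varies from library to library.

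Columns were assigned to replicates through the number in their names, and none was left out. A gene was called expressed at 1 TPM or more in every library. Levels are given as mean ± SD over the 6 libraries, and fold ranges are the highest over the lowest TPM. Neighbours among the 10 highest means were compared by two-sided exact sign-flip permutation tests over 64 assignments of differences in log2(TPM + 1), with a pseudocount of 1, which understates differences of low genes. The alternative was the exact Mann-Whitney test, with 924 assignments. The p-values measure the spread between these libraries only. There is 1 group, so no condition was compared. Other thresholds, pseudocounts and scalings, and leaving out each library, were also tried.

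The genes, classes, pathway lists and marker lists were chosen with earlier results of these data known. The genes named were the 15 with the highest mean TPM, adhesion receptors whose mean reached 1 TPM, the highest gene of each class, genes whose mean reached 1 TPM and in which 1 library stood apart, those nearest to the threshold on either side, and the 3 highest of each list. Gpr6, Gpr21, Gpr30, Gpr34, Gpr137c, Gpr155, Gpr183, Arrb2, Dcn, 2610528A11Rik and genes listed at 0, and genes around or overlapping receptor genes were named after their values were seen. Some genes that this rule names are not reported here. Positions are from GENCODE M21 (GRCm38, the assembly of mm10 with other gene models) and promoter sequences from RefSeq (GRCm38.p6). Promoters on chromosome 18, which holds Gpr17 and Gpr151, were left out for the 92 genes but not for the whole set. Among the rest, 65 of the 92 genes had an entry. Transcripts of Gpr137b and Gpr137b-ps were aligned to each other from GENCODE M21. The tests were checked on simulated data. Python 3.11.15 with pandas 2.3.3 and scipy 1.17.1 was used.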

Additional observations from a re-analysis of the deposited data

Results flagged for a closer look

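In 28 sets of 6 values, the gap between the most extreme library and its nearest neighbour was set against the whole range, and compared with Dixon's critical ratio for 6 values. For independent, normally distributed values chance would flag about 1 in 20 sets, or 1.4 of 28. TPM cannot fall below 0, and the sum and shares screened reuse the same genes, so 1.4 is no firm expectation here. The ratio was exceeded in 4 sets. Gpr19 had a ratio of 0.705 because replicate 1 (23.7 TPM) stood above the other libraries (3.28 to 9.29 TPM). Gpr146 had a ratio of 0.700 because of replicate 3 (5.64 TPM, beside 0.21 to 1.84 TPM in the others). Gpr82 had a ratio of 0.665 because of replicate 1 (5.22 TPM, beside 0 to 1.75 TPM). The share of inner-membrane and non-class-A genes in the receptors' summed level had a ratio of 0.690 because replicate 5 was low (37.0%, with a median of 49.1% over the 6 libraries). Replicate 5 had the lowest Gpr108 of the 6 libraries (48.8 TPM), the lowest Gpr137b-ps (8.42 TPM) and the second highest Gpr128 (102 TPM).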

How the results depend on the processing

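The count of expressed receptor genes was 16. It was 9 at 5 TPM or more in every library and 25 when a mean of at least 1 TPM was asked for, and it stayed within 1.5 times 16 at every other setting tried (20 above 0 in every library, 20 at 0.1 TPM or more, 16 after either rescaling, and 16 to 18 when 1 library was left out). Without replicate 1 Gpr39 was added, and without replicate 2 Gpr160 and Gpr55 were. Replicates 1 to 3 and 4 to 6 differed in Gm20594 (15588 to 21283 and 51804 to 56441 TPM), and within them the count was 16 and 19. The adhesion share was 35.8% to 39.3% when 1 library was left out. No neighbour pair passed an adjusted p of 0.05 under the alternatives, which says nothing of stability, since the sign-flip test could hardly pass it with 6 libraries and cannot with 5 (smallest exact p 0.0625), and rescaling a library leaves differences within it nearly as they were. In the exact Mann-Whitney test 2 pairs had an unadjusted p under 0.05, the same as in the main test. Rescaling without Rn45s and Gm20594 raised every mean, by over 1 SD for 10 of 23 named genes (Gpr108 from 90.5 to 130 TPM). Leaving out 1 library moved some means by over 1.5 times, among them Gpr52 (to 1.37 TPM without replicate 4), Gpr146 (to 0.920 TPM without replicate 3) and Gpr82 (to 0.368 TPM without replicate 1). No paired analysis was possible because the libraries form 1 group, with no second group to pair them with, and only genes were compared within libraries. The unknown depth limits what a value of 0 means, and whether the 43 genes listed at 0 are absent from these cells cannot be told from TPM.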
